A study of Mus musculus with 9 samples.

Results

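Interferon-stimulated genes are the genes that a cell switches on when an interferon binds its surface receptors. A list of 40 of them was followed here in mouse liver, among them 6 guanylate-binding proteins (GBP GTPases) and 5 immunity-related GTPases (IRG). The members were taken by gene symbol from expression tables that list 23440 genes, and all 40 were found. Livers came from C57Bl6 mice in 3 groups of 3 libraries each. The young untreated mice were 2 months old, the aged untreated mice 20 to 22 months, both on standard chow. The treated mice were aged 20 to 22 months and ate chow with PD-0332991 for 2 weeks, at a dose that the labels write as 450 mg/k. PD-0332991 (palbociclib) inhibits the cell cycle kinases Cdk4 and Cdk6. The design has no treated young group. No label names the animal behind a library, and every p-value refers to library-to-library spread, which may be technical.

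Type I interferons bind the receptor IFNAR and activate a complex that includes STAT2 and IRF9 and binds the interferon-stimulated response element (ISRE) in DNA. Interferon gamma binds IFNGR and acts on genes through the gamma-activated site (GAS). The genes induced in this way include GTPases that coat and disrupt the vacuoles of intracellular microbes, proteins that block viral RNA or virus assembly, the ubiquitin-like modifier ISG15, and the sensors and transcription factors that renew the signal. Hepatocytes, Kupffer cells and sinusoidal endothelial cells of the liver all respond to interferon.

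Promoter stretches of 8 members are printed to show how the ISRE and GAS letters sit in the GBP, IRG, Ifit and Isg15 genes. They were taken from RefSeq promoter windows of build GRCm38.p6 and read 5′ to 3′ on the gene's own strand, 100 bases each. Capitals mark every match to the ISRE core, searched as GAAANNGAAA and its reverse complement TTTCNNTTTC, or to the GAS core TTCNNNGAA, which reads the same on both strands. Gbp2 (chr3:142620559-142620658), Gbp3 (chr3:142559957-142560056), Igtp (chr11:58199471-58199570), Irgm2 (chr11:58214862-58214961), Ifit1 (chr19:34640749-34640848) and Ifit3 (chr19:34583345-34583444) lie on the plus strand. Tgtp1 (chr11:48992275-48992374) and Isg15 (chr4:156200836-156200935) lie on the minus strand.
Gbp2: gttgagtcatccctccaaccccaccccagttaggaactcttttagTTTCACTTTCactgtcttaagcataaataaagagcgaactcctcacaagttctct
Gbp3: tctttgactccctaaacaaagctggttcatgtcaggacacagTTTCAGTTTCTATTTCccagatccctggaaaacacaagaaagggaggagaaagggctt
Igtp: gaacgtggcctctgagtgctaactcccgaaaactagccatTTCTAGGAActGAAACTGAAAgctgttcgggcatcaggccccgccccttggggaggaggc
Irgm2: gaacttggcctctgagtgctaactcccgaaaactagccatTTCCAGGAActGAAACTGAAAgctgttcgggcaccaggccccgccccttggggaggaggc
Tgtp1: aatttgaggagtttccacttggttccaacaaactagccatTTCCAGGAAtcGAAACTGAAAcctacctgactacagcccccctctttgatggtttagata
Ifit1: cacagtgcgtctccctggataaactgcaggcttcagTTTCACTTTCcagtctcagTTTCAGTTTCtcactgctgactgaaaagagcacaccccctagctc
Ifit3: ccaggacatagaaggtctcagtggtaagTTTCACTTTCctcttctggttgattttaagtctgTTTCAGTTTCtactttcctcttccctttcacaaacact
Isg15: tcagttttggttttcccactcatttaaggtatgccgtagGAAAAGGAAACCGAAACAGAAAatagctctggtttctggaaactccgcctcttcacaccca

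Igtp and Irgm2 had 97 of 100 bases in common. In both, and in Tgtp1, a GAS core was followed by an ISRE core whose first base lay 11 bases further on. Over the whole stretch Tgtp1 matched Igtp at 47 and Irgm2 at 50 of the 100 bases. Isg15 held 3 ISRE cores in a row, each overlapping the next, and Gbp3 held 2 that overlapped. Ifit1 and Ifit3 each held 2 separate ISRE cores. RefSeq windows, from 250 bases before to 50 after the start, were at hand for 26 members. An ISRE core was present in 17 of those 26 (65.4%), against 3.99% of the 27025 genes in the table. A GAS core was present in 9 of 26 (34.6%), against 9.55% of all genes. In Bst2 the GAS core overlapped an ISRE core. A match is a run of letters and not a shown binding site. The 14 members without a window were Gbp6, Gbp9, Gbp11, Iigp1, Mx1, Mx2, Zbp1, Usp18, Dhx58, Ifi27, Ifi27l2a, Ifi27l2b, Rtp4 and Parp14.

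**Figure D1:**
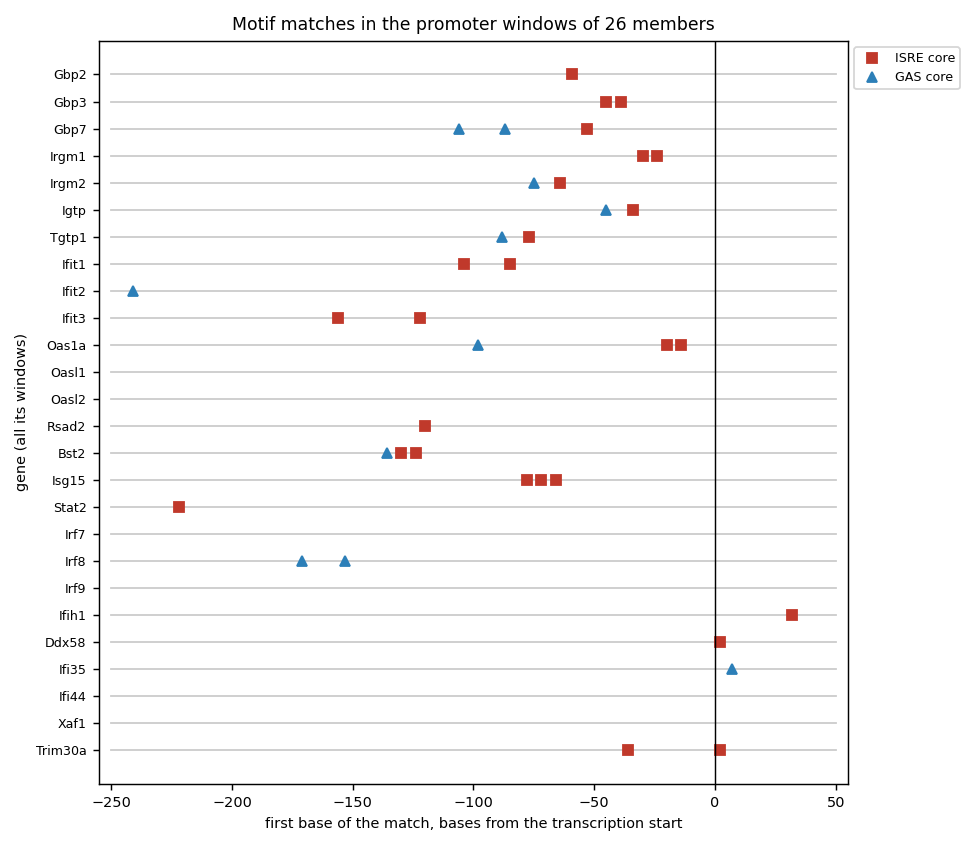
Positions of ISRE core (squares) and GAS core (triangles) matches in the RefSeq promoter windows of 26 members, in bases from the transcription start (x axis), 1 line per gene. ISRE matches occur in 17 genes, and Igtp, Irgm2 and Tgtp1 have a GAS core 11 bases before an ISRE core.

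Expression was given in TPM (the unit kallisto reports), a level scaled to transcript length and library total, so levels may be compared between genes. In young liver the most abundant members were Bst2, a membrane tether that holds budding virus on the cell (225 ± 11.0 TPM, SD, n = 3), Ifi27 (100 ± 22.0 TPM) and the IRG gene Iigp1 (83.5 ± 16.8 TPM). The least abundant were Ifi44 (0.496 ± 0.254 TPM), Mx1 (0.499 ± 0.0437 TPM) and Ifit2 (0.572 ± 0.144 TPM). None of the 40 was listed at 0 in any library. Genes with at least 1 TPM in at least 3 libraries were tested, which kept 33 members and left out Gbp9, Tgtp1, Ifit2, Mx1, Oas1a, Ifi44 and Trim30a. Of the 33, 25 had at least 1 TPM in every library, and 5 (Gbp3, Gbp7, Ifit1, Oasl2 and Rsad2) would not have passed without the young libraries, in which their means were highest. Counts over the tested members are therefore given beside counts over all 40.

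The same tables listed 9546 to 9992 genes at 1 TPM or more per library. Of 10 hepatocyte markers 9 were above the filter, but Alb was listed at 0 in all libraries, so a listed 0 need not mean absence. Read depth cannot be recovered from TPM and is unknown. Aged replicate 3 stood apart: when it was left out, the aged against young comparison called 377 genes higher and 319 lower, and with it 66 and 46. Values without this library are given where leaving it out changes the call of a member.

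The first comparison, aged untreated against young untreated liver, shows these genes at 2 ages without the drug. In aged liver Gbp11, Gbp6 and Usp18, the protease that takes ISG15 off its targets and restrains the interferon receptor, were lower, at 0.261, 0.37 and 0.525 of the young mean TPM. Ifi27l2b, a mitochondrial protein of the IFI27 family, was higher, at 6.46 times the young mean. The transcription factors Stat2, Irf7 and Irf9 had log2 fold changes between -0.19 and 0.11, and none was called. Tests were made with limma on log2(TPM + 0.5), with Benjamini-Hochberg adjustment over the 10161 genes tested, and a gene was called at an adjusted p under 0.05. Because of the added 0.5, the fold changes of genes at low TPM come out too small.

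By that rule 3 of 33 members were called lower with age, where 0.453% of all genes were, and 1 was called higher, where 0.65% of all genes were. In 12 of the 33 every aged library lay below every young library, against 9.57% of all genes tested, and in 3 every aged library lay above, against 8.82%. Of those 12, Gbp7 and Oasl2 would not have passed the filter without the young libraries, where they were high. Of the 33 tested members 27 had a log2 fold change below 0, against 52.1% of all genes tested. The 27 include all 5 members that needed the young libraries to pass the filter, which are no support for that count. Over all 40 members the aged mean was lower for 32, and the aged libraries lay wholly below the young ones for 15 and wholly above for 3. For these counts over all 40 no share over all listed genes was computed. The median log2 fold change of the tested members was -0.285, and of all genes tested -0.012. Without the filter the members' median was -0.296 over all 40. The members were chosen with earlier results of these data known, so their distance from all genes is no independent result. For 47 further interferon-stimulated genes tested, which are not members, the median was -0.092. Of these 31 had a log2 fold change below 0, and 1 was called lower and 0 higher. In a bulk tissue a lower level can come from fewer cells of a type or from less RNA per cell, which cannot be told apart. The calls depended on single libraries, for the members and over all genes. Ifi27l2b alone remained called without young replicate 1, without young replicate 2 or without aged replicate 1. Over all genes these fits called 12, 26 and 30 higher and 3, 11 and 10 lower, beside 66 and 46 with all libraries. Without young replicate 3, aged replicate 2 or PD-0332991 replicate 3, 2 members were called. Over all genes these fits called, in that order, 35, 41 and 42 higher and 14, 23 and 26 lower. Over all alternative fits that tested them, the log2 fold changes lay at -1.913 to -1.409 for Gbp11 and -1.353 to -0.883 for Gbp6. For Usp18 they lay at -0.919 to -0.649. Without aged replicate 3, 6 members were called, Gbp2 (log2 fold change -0.67, limma adjusted p = 0.036) and Ifi27l2a (log2 fold change -0.77, limma adjusted p = 0.0231) being added to the 4.

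The second comparison, PD-0332991 against untreated liver at the same age, sets the drug diet against the chow of the aged controls. No member was called in either direction by limma with Benjamini-Hochberg adjustment, where 0.837% of all genes were called lower and 0.61% higher. At an unadjusted p under 0.05 there were 5 (Ifi27, Ifi27l2b, Igtp, Irf7 and Mx2), 15.2% of the tested members against 18.2% of all genes. The treated libraries lay wholly below the aged ones for Bst2, Ifi27, Igtp and Irf7, 4 of 33 against 16.7% of all genes, and wholly above for Mx2, 1 of 33 against 5.72% of all genes. Of the 33 tested members 21 had a log2 fold change below 0, against 66.7% of all genes tested. Over all 40 members the treated mean was lower for 25. The treated libraries lay wholly below the aged ones for 5 of the 40, Oas1a being added, and wholly above for 1. No share over all listed genes was computed for these counts over all 40. The members' median log2 fold change was -0.105, beside -0.09 over all genes. Mx2 was called (limma adjusted p = 0.0408) without aged replicate 3, where its log2 fold change was 0.66.

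The third comparison, treated aged against young liver, shares its treated libraries with the second and its young libraries with the first, so its values are not independent of theirs. Gbp11, Gbp6, Usp18, Ifi27l2a and the IRG gene Igtp fell and Ifi27l2b and Mx2 rose, which makes 5 members called lower, where 4.29% of all genes were, and 2 called higher, where 2.59% were. Treated libraries lay wholly below the young ones for 16 of 33 tested members, against 24.4% of all genes, and wholly above for 2, against 9.55%. Of those 16, Gbp3, Oasl2 and Rsad2 would not have passed the filter without the young libraries, where they were high. Of the 33 tested members 28 had a log2 fold change below 0, against 64.9% of all genes tested. The 28 again include all 5 members that needed the young libraries to pass the filter. Over all 40 members the treated mean was lower than the young mean for 35. The treated libraries lay wholly below the young ones for 20 of the 40 and wholly above for 2. These counts over all 40 have no share over all listed genes beside them. The median log2 fold change was -0.331, beside -0.097 over all genes. Leaving out PD-0332991 replicate 2 left 3 members called (Gbp11, Ifi27l2a and Ifi27l2b), and leaving out young replicate 1, young replicate 2 or PD-0332991 replicate 3 left 4, those 3 and Usp18. Over all genes these fits called, in that order, 72, 105, 148 and 104 higher and 79, 108, 229 and 145 lower. With all libraries 263 were called higher and 436 lower. Leaving out aged replicate 3, which enters this comparison only through the shared spread and the filter, gave 9, with Irgm2 (limma adjusted p = 0.0437) and Ddx58 (limma adjusted p = 0.0435) added. Over all genes that fit called 431 higher and 832 lower.

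**Figure D2:**
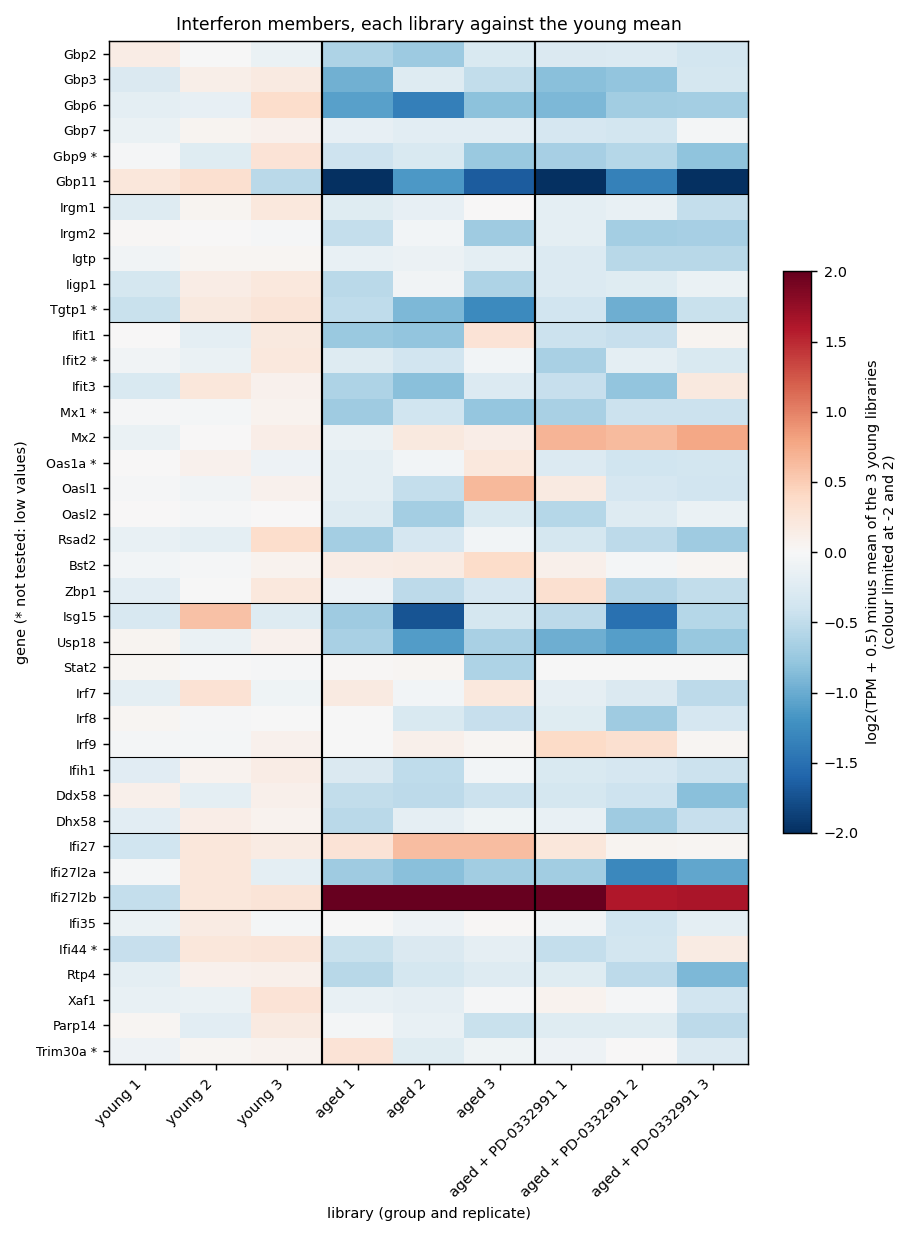
Each of the 40 members (rows, grouped by role) in each of the 9 libraries (columns), coloured by log2(TPM + 0.5) minus the mean of the 3 young libraries. Stars mark the 7 members left untested for low values. Aged and treated columns are mostly blue, Ifi27l2b is red in all 6 of them, and Mx2 is red in the 3 treated columns.

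The members' median deviation from the young mean summarises each library. It was -0.116, 0.018 and 0.087 in the young libraries, -0.273, -0.298 and -0.231 in the aged ones, and -0.272, -0.406 and -0.385 in the treated ones. All 6 libraries of aged mice lay below all 3 young ones, and the aged and treated libraries overlapped. These medians cover all 40 members, tested or not. The same median over all tested genes was 0.009, -0.023 and 0.014 in the young libraries and -0.033, -0.007 and 0.013 in the aged ones. In the treated libraries it was -0.084, -0.122 and -0.079, so all tested genes were also lower there. Within the young group, replicate 1 had the lowest value for 23 of the 40 members and replicate 3 the highest for 25.

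**Figure D3:**
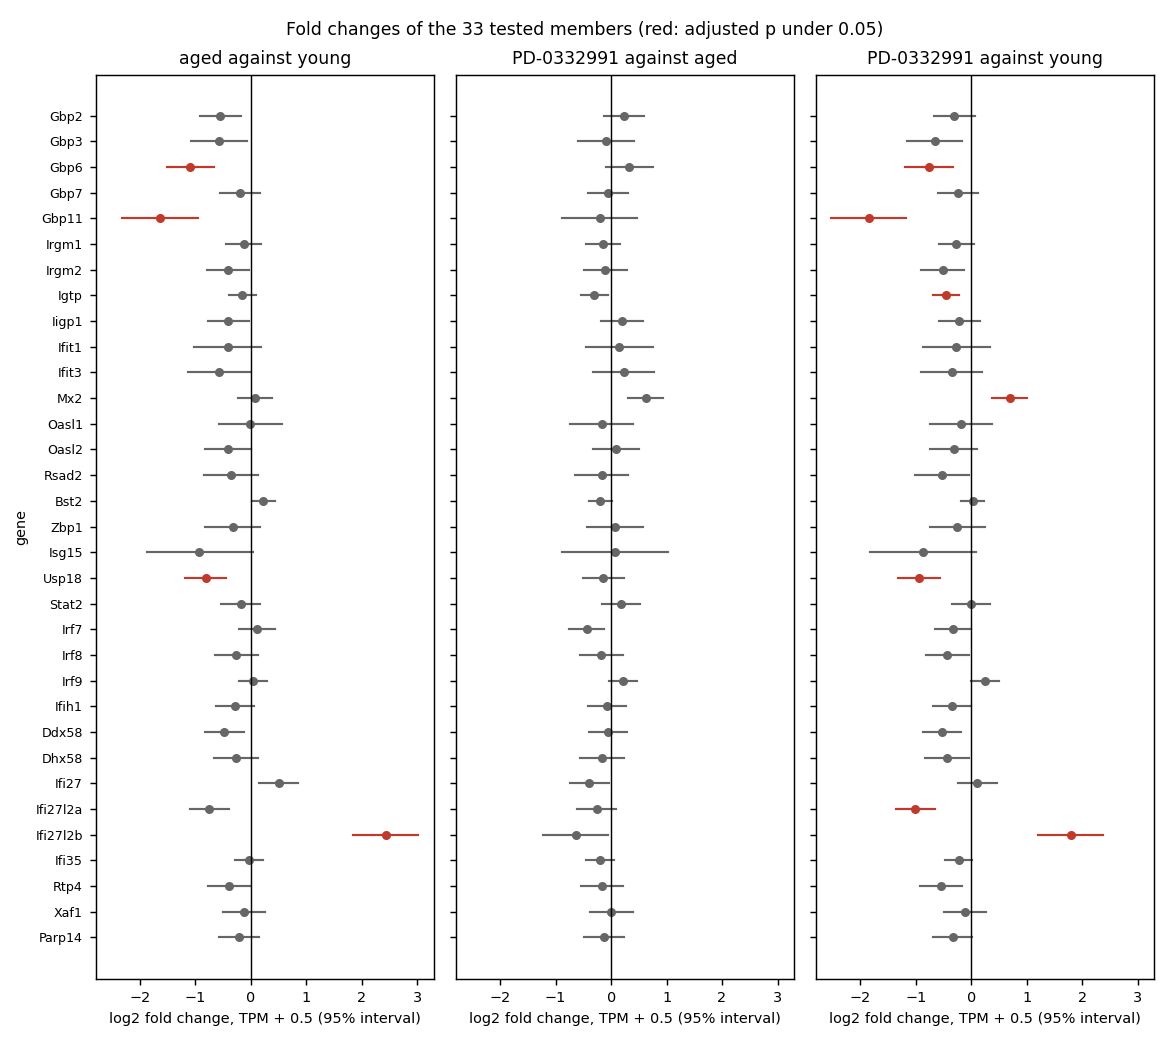
Log2 fold changes of the 33 tested members with 95% intervals (x axis) in the 3 comparisons, red where the limma adjusted p was under 0.05. Red points number 4 in the first panel, 0 in the second and 7 in the third.

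Upstream of the members stand the interferons and their receptors. Of 20 interferon genes looked for, 18 were listed, 15 of them at 0 in every library, and the highest value of any was 0.291 TPM. Ifnb1 was listed at 0 in all 9 libraries and Ifng at 0 to 0.1 TPM, so no ligand could be tested. Of 6 receptor genes 5 were tested and none was called in any comparison. Ifnar1, a chain of the type I receptor, was at 5.57 ± 0.428, 5.24 ± 1.01 and 5.24 ± 0.24 TPM in young, aged and treated liver, and its partner Ifnar2 was at 56.4 ± 0.493, 50.8 ± 3.9 and 51.3 ± 2.74 TPM. Ifngr1, a chain of the interferon gamma receptor, was at 7.33 ± 1.47, 7.05 ± 1.64 and 5.96 ± 0.364 TPM, and its partner Ifngr2 was at 9.64 ± 1.44, 8.93 ± 0.838 and 8.53 ± 0.589 TPM.

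Among the signal-carrying factors Stat2, a subunit of the complex that type I interferon activates, had 15.0, 14.5 and 14.4 TPM in the young libraries, 14.9, 15.0 and 9.32 in the aged ones and 14.5, 14.6 and 14.5 in the treated ones. Aged replicate 3 was low and the other 8 libraries lay within 14.4 to 15.0 TPM. Its log2 fold change with age was -0.19 (SE 0.16, limma adjusted p = 0.623), and without that library it was 0.03. Irf9, the DNA-binding subunit of the same complex, had 10.8, 10.8 and 11.8 TPM in young, 11.0, 11.9 and 11.4 in aged and 14.7, 14.0 and 11.5 in treated liver. Treated replicates 1 and 2 were above all others and replicate 3 lay among them, and the log2 fold change from aged to treated was 0.21 (SE 0.11, limma adjusted p = 0.346). Irf7, the factor that amplifies type I interferon production, had 11.6, 16.5 and 12.6 TPM in young, 15.2, 12.9 and 15.5 in aged and 11.7, 10.9 and 9.16 in treated liver. The treated libraries were all below the aged ones but overlapped the young ones, with log2 fold changes of -0.44 against aged (SE 0.15, limma adjusted p = 0.153) and -0.33 against young (limma adjusted p = 0.19). Irf8, a factor of macrophages and dendritic cells, averaged 1.99, 1.60 and 1.36 TPM in the 3 groups and was not called. Irf1 acts in the same layer and is not a member. Irf1, the early factor downstream of interferon gamma, rose with the drug from 7.13, 6.99 and 13.2 TPM in aged to 21.2, 20.7 and 21.3 TPM in treated liver (log2 fold change 1.23, SE 0.20, limma adjusted p = 0.0198). All treated Irf1 values were above all young and aged values. Aged replicate 3 was high for Irf1, whose log2 fold change with age was -0.42 (limma adjusted p = 0.364) and, without that library, -0.71 (limma adjusted p = 0.00606).

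Both GBP members that fell with age lie in the chromosome 5 cluster of the family. GBP proteins are GTPases that assemble on pathogen vacuoles. In the positions of GENCODE M21 (GRCm38), Gbp5, Gbp7, Gbp3, Gbp2b and Gbp2 lie at chr3:142493978-142638008, and Gbp8, Gbp9, Gbp4, Gbp10, Gbp6 and Gbp11 at chr5:105014150-105346472. Gbp2b, Gbp4, Gbp5, Gbp8 and Gbp10 are not members and were added after their values were seen, to complete the family. The chromosome 5 genes summed to 11.9, 13.2 and 12.9 TPM in young, 3.50, 5.02 and 5.34 in aged and 3.74, 4.99 and 4.13 in treated liver. Their aged and treated sums were 0.365 and 0.338 of the young mean, with no overlap with the young libraries. The chromosome 3 genes summed to 4.47, 5.42 and 5.94 TPM in young, 3.37, 3.12 and 3.71 in aged and 3.17, 3.25 and 3.87 in treated liver, or 0.645 and 0.651 of the young mean, again with no overlap. All 5 genes of the first cluster and all 6 of the second had a lower mean in aged and in treated than in young liver. The difference between the clusters was not tested.

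**Figure D4:**
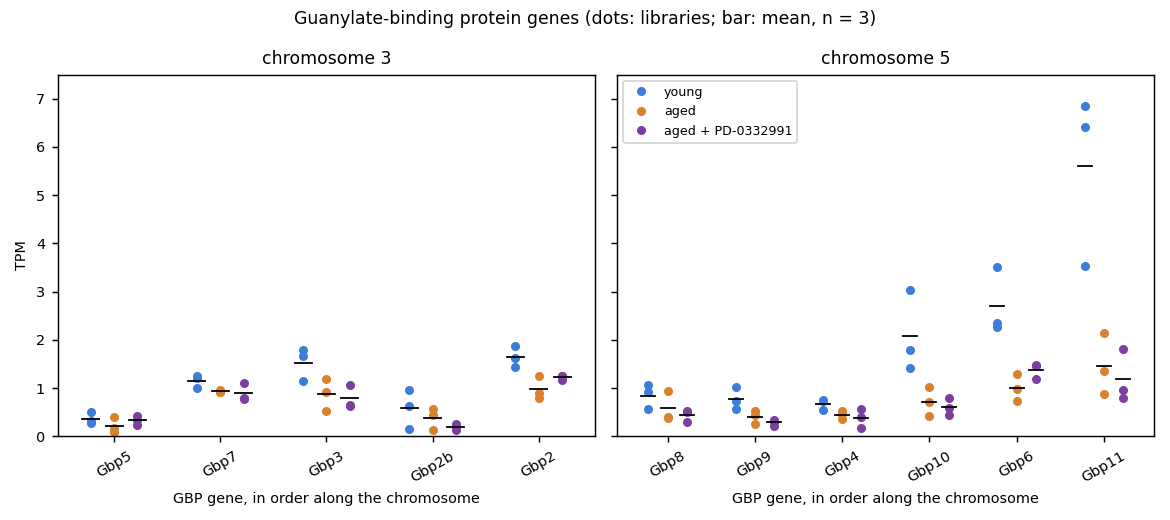
TPM of the 11 GBP genes (y axis) in their order along chromosome 3 (left) and chromosome 5 (right). Points are libraries, coloured by group, and bars are means of 3. Gbp11, Gbp6, Gbp10 and Gbp9 on chromosome 5 and Gbp2 on chromosome 3 show young libraries above all aged and treated ones.

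Gbp11 (chr5:105323042-105346472, minus strand, typed by GENCODE as a polymorphic pseudogene) had 6.42, 6.85 and 3.54 TPM in young, 0.876, 2.15 and 1.36 in aged and 0.799, 1.81 and 0.970 in treated liver. All 6 libraries of aged mice were below all 3 young ones, and young replicate 3 was the lowest of its group. Gbp11 fell with age (log2 fold change -1.64, SE 0.31, limma adjusted p = 0.0362) and from young to treated (log2 fold change -1.85, limma adjusted p = 0.00948), and from aged to treated its log2 fold change was -0.21 (95% interval -0.89 to 0.47, limma adjusted p = 0.769). The fall from young to treated was called in all 18 alternative fits that tested it. The fall with age was lost in 6 of 18 (limma adjusted p up to 0.167), among them the fits without young replicate 1, young replicate 2, aged replicate 1 or PD-0332991 replicate 3. Gbp6 (chr5:105270702-105293698, minus strand) had 2.27, 2.34 and 3.52 TPM in young, 0.989, 0.730 and 1.29 in aged and 1.19, 1.46 and 1.47 in treated liver. Here too the young libraries were above all others, and aged and treated libraries overlapped. Gbp6 fell with age (log2 fold change -1.09, SE 0.20, limma adjusted p = 0.0278) and from young to treated (log2 fold change -0.76, limma adjusted p = 0.0407). Both calls were lost in some alternative fits, 7 of 18 for age (limma adjusted p up to 0.104) and 9 of 18 for treated against young (limma adjusted p up to 0.156). The age call did not hold without any 1 of the 3 young libraries or without aged replicate 1 or 2, and the other call did not hold without any 1 of the 6 libraries compared. That other call was also lost with median-of-ratios scaling (limma adjusted p = 0.0637) and with quantile normalization (limma adjusted p = 0.0848). The 2 genes share sequence with their neighbours. Of the 31-base words in annotated Gbp6 transcripts 74.2% occur in other genes (51.4% in Gbp10), and of those in Gbp11 34.3% do, so reads may have been split among the chromosome 5 genes. Gbp10 (2.07 ± 0.849, 0.721 ± 0.308 and 0.607 ± 0.177 TPM in young, aged and treated liver) fell from young to treated (log2 fold change -1.18, limma adjusted p = 0.0231), and with age its limma adjusted p was 0.0842, or 0.0165 without aged replicate 3. Gbp10 would not have passed the filter on low values without the young libraries, where it was high, so its fall is no independent support for that of its neighbours. Gbp2, Gbp3 and Gbp7, with young means of 1.15 to 1.65 TPM, had log2 fold changes with age of -0.55, -0.57 and -0.19 and were not called. Gbp9, untested, averaged 0.775, 0.409 and 0.288 TPM.

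The IRG genes encode GTPases that act together with the GBP proteins on vacuoles, with Irgm1, Irgm2 and Igtp as the regulatory members. All 5 had a lower mean in aged and in treated than in young liver, and 1 call was made, for Igtp from young to treated. Igtp (chr11:58199556-58207591, plus strand) had 11.6, 12.7 and 12.6 TPM in young, 11.1, 11.3 and 10.7 in aged and 10.1, 8.18 and 8.25 in treated liver. The 3 groups did not overlap and stood in that order. Its log2 fold change was -0.15 with age (limma adjusted p = 0.556), -0.31 from aged to treated (limma adjusted p = 0.179) and -0.46 from young to treated (SE 0.11, limma adjusted p = 0.0318), so only the last was a call. It was lost in 7 of 19 alternative fits, with limma adjusted p up to 0.123, among them those without any 1 young library or without PD-0332991 replicate 2 or 3. Median-of-ratios scaling also lost it (log2 fold change -0.36, limma adjusted p = 0.0826). Irgm2 overlaps Igtp in the annotation and shares sequence with it (15.9% of the 31-base words of Igtp). Irgm2 averaged 11.1, 8.39 and 7.71 TPM, with all young libraries above the others, and was not called with all libraries in the fit (log2 fold change from young to treated -0.52, limma adjusted p = 0.1). Irgm1 (21.7, 19.6 and 17.8 TPM) and Iigp1 (83.5, 62.8 and 70.9 TPM) overlapped between all groups. Tgtp1, untested and with 84.4% of its 31-base words in other genes, averaged 0.810, 0.206 and 0.360 TPM.

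The antiviral effectors had 0 of 8 tested members called with age and 1, Mx2, called from young to treated. Mx proteins are dynamin-like GTPases that trap viral particles, and in most laboratory mouse strains both Mx genes carry mutations that prevent a working protein. GENCODE types Mx2 (chr16:97535308-97560900, plus strand) as a polymorphic pseudogene. Mx2 had 1.78, 2.00 and 2.23 TPM in young, 1.79, 2.36 and 2.25 in aged and 3.52, 3.36 and 3.78 in treated liver. Every treated library was above every young and aged library, while young and aged overlapped. Its log2 fold change was 0.07 with age (limma adjusted p = 0.872), 0.63 from aged to treated (SE 0.14, 95% interval 0.31 to 0.94, limma adjusted p = 0.0561) and 0.70 from young to treated (limma adjusted p = 0.0176). The last call was lost without young replicate 1 or 2 or without PD-0332991 replicate 2 or 3 (limma adjusted p 0.0506 to 0.0756). From aged to treated the limma adjusted p was 0.0312 with median-of-ratios scaling, 0.0323 with quantile normalization and 0.0255 with array weights. Mx1, untested, had 0.499, 0.149 and 0.205 TPM and all young libraries above the rest.

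Of the other effectors, Ifit1 and Ifit3, which bind foreign RNA, had log2 fold changes with age of -0.42 and -0.58, with overlapping groups, and 61.8% of the 31-base words of Ifit3 occur in Ifit3b. For Ifit1 the low aged libraries were replicates 1 and 2 (0.644 and 0.616 TPM) and replicate 3 (1.81 TPM) was above all young ones. Rsad2 (viperin) averaged 1.32, 0.922 and 0.749 TPM, and Oasl2 averaged 1.04, 0.667 and 0.743 TPM. Oasl1, a relative of the enzymes that activate RNase L, averaged 4.55, 4.80 and 4.02 TPM, with aged replicate 3 (7.38 TPM) far above the other libraries. Bst2 had 217, 221 and 238 TPM in young, 249, 253 and 290 in aged and 240, 218 and 231 in treated liver. Its young and aged libraries did not overlap, but the log2 fold change of 0.23 was not called (limma adjusted p = 0.285). Zbp1, a sensor of Z-form nucleic acid, averaged 5.61, 4.39 and 4.82 TPM with overlapping groups. The untested Ifit2 averaged 0.572, 0.410 and 0.325 TPM, and the untested Oas1a, which shares 68.7% of its 31-base words with Oas1g, averaged 0.785, 0.779 and 0.507 TPM.

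In the ISG15 system, Usp18 (chr6:121245906-121270917, plus strand) had 4.19, 3.62 and 4.32 TPM in young, 2.39, 1.58 and 2.39 in aged and 1.81, 1.60 and 2.19 in treated liver. The young libraries were above all others, and aged and treated overlapped. Usp18 fell with age (log2 fold change -0.81, SE 0.17, limma adjusted p = 0.0496) and from young to treated (log2 fold change -0.95, limma adjusted p = 0.0102). The age call lay at the threshold and was lost in 12 of 18 alternative fits, with limma adjusted p up to 0.187, and it held without 1 library only where that library was aged replicate 3. The call from young to treated was lost in 1 of 18, without PD-0332991 replicate 2 (limma adjusted p = 0.0544). No 31-base word of Usp18 occurs in another gene. Isg15 had 10.6, 20.2 and 11.0 TPM in young, 7.95, 3.66 and 10.3 in aged and 9.05, 4.41 and 8.78 in treated liver. Young replicate 2 was high, replicate 2 of the aged and of the treated group was low, and the lowest young library (10.6 TPM) lay barely above the highest of the rest (10.3 TPM). Its log2 fold change with age of -0.93 had a wide error (95% interval -1.88 to 0.03, limma adjusted p = 0.347).

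**Figure D5:**
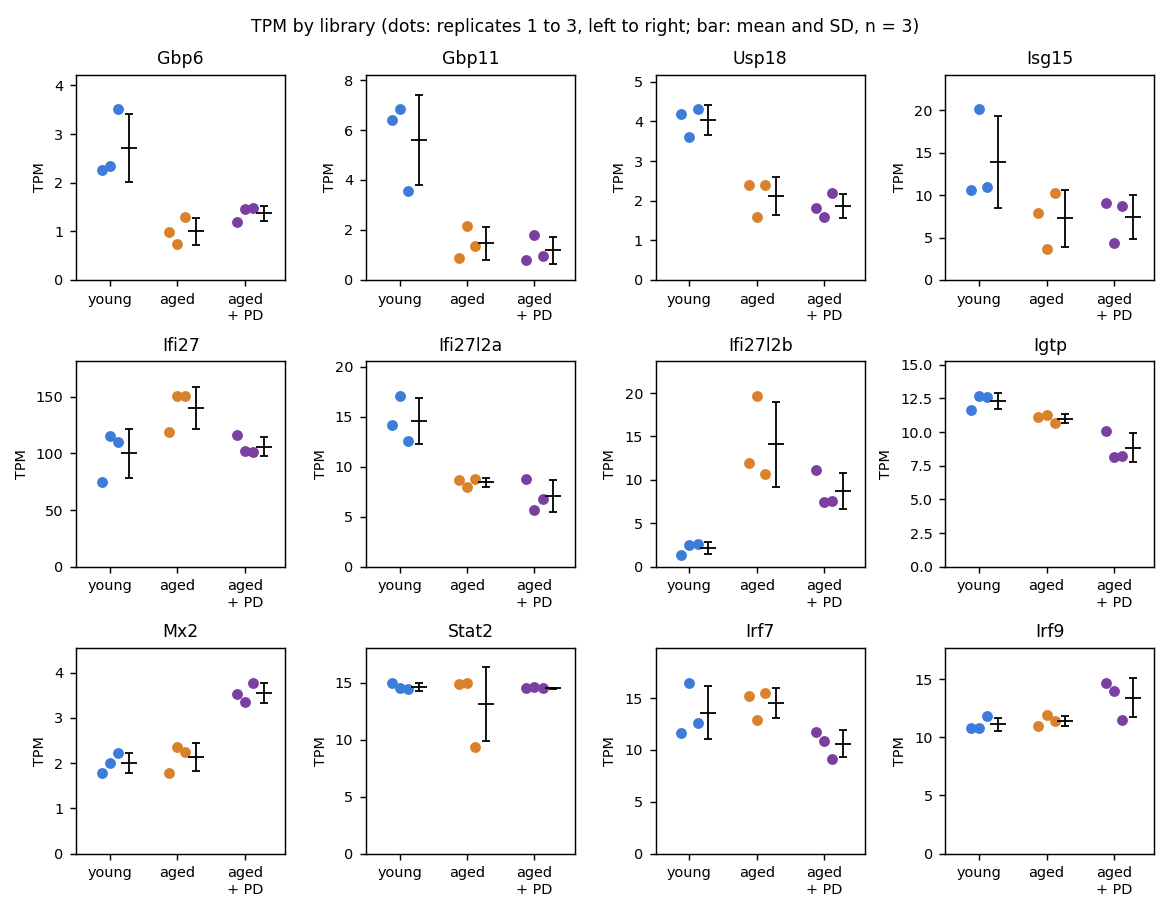
TPM (y axis, from 0) of 12 members in the 9 libraries, with points for replicates 1 to 3 and bars for mean and SD. Gbp6, Gbp11 and Usp18 are high in young, Ifi27l2b is low in young, Mx2 is high in treated liver, and Stat2 has 1 low aged library.

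The IFI27 family comprises small mitochondrial membrane proteins, and its 3 members lie side by side on chromosome 12. Ifi27 is at chr12:103434211-103440239 on the plus strand, Ifi27l2a at chr12:103442167-103443680 and Ifi27l2b at chr12:103450898-103457223 on the minus strand. Ifi27l2b had 1.39, 2.56 and 2.62 TPM in young, 12.0, 19.7 and 10.7 in aged and 11.1, 7.49 and 7.58 in treated liver. Every library of aged mice was above every young one. It rose with age (log2 fold change 2.43, SE 0.26, limma adjusted p = 0.00458) and from young to treated (log2 fold change 1.79, SE 0.26, limma adjusted p = 0.00594), in all 19 alternative fits of each. From aged to treated its log2 fold change was -0.64 (95% interval -1.23 to -0.05, limma adjusted p = 0.236), which was not called. Ifi27l2a had 14.2, 17.1 and 12.6 TPM in young, 8.64, 7.95 and 8.75 in aged and 8.76, 5.63 and 6.80 in treated liver. All 3 young libraries were above the rest. It fell from young to treated (log2 fold change -1.01, SE 0.16, limma adjusted p = 0.00627) in all 19 alternative fits, and with age its log2 fold change of -0.75 had a limma adjusted p of 0.0521. The TPM ratio of Ifi27l2b to Ifi27l2a was 0.0977, 0.149 and 0.209 in the young libraries, 1.39, 2.48 and 1.23 in the aged ones and 1.27, 1.33 and 1.12 in the treated ones. Thus Ifi27l2a was the more abundant of the pair in every young library and Ifi27l2b in every library of aged mice. They share little sequence, 6% of the 31-base words of Ifi27l2a and 2.8% of those of Ifi27l2b. Ifi27 had 75.0, 115 and 110 TPM in young, 119, 151 and 151 in aged and 116, 102 and 101 in treated liver. Aged libraries were above all others for Ifi27, but neither the log2 fold change with age of 0.50 (limma adjusted p = 0.178) nor that from aged to treated of -0.39 (limma adjusted p = 0.232) was called.

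None of the RIG-I-like sensors of viral RNA, Ddx58 (RIG-I), Ifih1 (MDA5) and Dhx58 (LGP2), was called with all libraries in the fit. Ddx58 had 5.04, 3.97 and 5.0 TPM in young, 3.16, 3.10 and 3.33 in aged and 3.53, 3.35 and 2.38 in treated liver. Its young libraries were above all others, with a log2 fold change with age of -0.48 (SE 0.16, limma adjusted p = 0.185) and from young to treated of -0.53 (limma adjusted p = 0.0644). The latter was called without aged replicate 3 (limma adjusted p = 0.0435). Ifih1 averaged 3.44, 2.74 and 2.56 TPM and Dhx58 4.41, 3.58 and 3.15 TPM. The remaining members (Ifi35, Ifi44, Rtp4, Xaf1, Parp14 and Trim30a) held no call, and the largest change with age among the tested ones was that of Rtp4, a chaperone for membrane receptors, at 6.43 ± 0.759 TPM in young and 4.79 ± 0.564 in aged liver (log2 fold change -0.39, limma adjusted p = 0.323). Parp14, which attaches ADP-ribose to proteins, averaged 3.49, 2.95 and 2.65 TPM in young, aged and treated liver, Ifi35 averaged 26.8, 26.1 and 22.8 TPM, and Xaf1, a promoter of cell death, averaged 1.95, 1.74 and 1.76 TPM. The untested Ifi44 and Trim30a were at most at 0.649 and 1.14 TPM in any library.

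Other genes of the pathway were counted from lists of 168 symbols, of which 161 were listed and 103 tested. With age, 1 was called lower and 1 higher, 0.971% each, beside 0.453% and 0.65% of all genes. Cxcl9, a chemokine that interferon gamma induces, fell with age, from 2.45, 2.35 and 2.79 TPM in young to 1.12, 0.881 and 1.01 in aged liver (log2 fold change -1.01, SE 0.19, limma adjusted p = 0.033), and Ticam1, the adaptor of Toll-like receptor 3, rose, from 2.98, 3.15 and 3.35 TPM to 7.31, 5.93 and 5.30 in aged liver (log2 fold change 0.86, SE 0.14, limma adjusted p = 0.0199). Neither gene's young and aged libraries overlapped. With the drug, Irf1 was the 1 gene called, or 0.971%, beside 0.61% of all genes called higher. Without aged replicate 3, Stat3, Socs3 and Myd88 were also called higher with the drug (limma adjusted p = 0.024, 0.0185 and 0.0496). Irf5 and Mov10 were then called lower (limma adjusted p = 0.0316 and 0.035). Over all genes that fit called 164 higher and 228 lower with the drug, beside 62 and 85 with the library. It also called Stat3 and Ifitm2 higher with age (limma adjusted p = 0.00126 and 0.00801). From young to treated 6 were called lower (Irf5, Gbp10, F830016B08Rik, Cmpk2, Lgals3bp and Mov10) and 8 higher (Stat3, Irf1, Socs3, Ikbke, Ticam1, Myd88, Ifitm2 and Isg20), or 5.83% and 7.77%, beside 4.29% and 2.59% of all genes. Gbp10 and Cmpk2 would not have passed the filter without the young libraries, where they were high, so their lower calls are not evidence for the list. Of the higher ones Stat3, which carries the signal of interleukin 6, had the smallest limma adjusted p (0.00215) at 15.5 ± 0.793 TPM in young and 39.3 ± 0.941 TPM in treated liver. Of the lower ones Mov10, an RNA helicase, had the smallest (limma adjusted p = 0.00318) at 6.06 ± 0.0851 and 2.72 ± 0.375 TPM. The 15 genes of class I antigen presentation, which interferon gamma also induces, were all tested and none was called in any comparison, with a median log2 fold change of 0.02 with age. The genes of that list farthest from 0 with age were H2-D1, a class I heavy chain (log2 fold change 0.38, limma adjusted p = 0.184), and Nlrc5, the activator of class I genes (log2 fold change -0.27, limma adjusted p = 0.451). Traf3, a signalling adaptor of the sensors (log2 fold change 0.41, limma adjusted p = 0.294), and Plac8 (log2 fold change -0.82, limma adjusted p = 0.251) were likewise not called with age.

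Markers of cell types that respond to or produce interferon were summed in each library. Of 12 listed Kupffer cell and macrophage markers none was called with age, and their sums were 171 to 258 TPM in young, 165 to 236 in aged and 166 to 169 in treated liver. From young to treated, where the most members were called, 5 of the 12 were called lower (Clec4f, Vsig4, Timd4, Csf1r and Cd68) and the list's median log2 fold change was -0.65. The 10 hepatocyte markers summed to 25200 to 26600 TPM in young, 20800 to 25500 in aged and 21200 to 24900 in treated liver, with no overlap between young and treated libraries, and Ttr was called lower from young to treated. The part of these markers in the members' changes was not tested. Sinusoidal endothelial markers summed to 85.0 to 90.9 TPM in young, 72.5 to 97.4 in aged and 71.5 to 88.0 in treated liver, with Lyve1 of 10 called lower with age. Plasmacytoid dendritic cell markers, for the cells that make most type I interferon, summed to 2.37 to 4.41, 2.83 to 4.69 and 2.01 to 3.75 TPM, with 6 of 8 under 1 TPM in every library. T and NK cell markers, for the cells that make interferon gamma, summed to 5.16 to 6.86, 4.71 to 6.29 and 3.32 to 6.77 TPM, with 12 of 14 under 1 TPM in every library. Conventional dendritic cell and B cell markers summed to 1.70 to 3.43 and 2.00 to 9.05 TPM over all libraries. Neutrophil markers summed to 4.95 to 23.7 TPM in young, 17.6 to 508 in aged and 157 to 539 in treated liver. Of them S100a8, S100a9 and Retnlg were called higher from young to treated. The 10 markers looked for, 9 of them listed, include the acute phase gene Lcn2, so the sum need not reflect neutrophils alone. The part of these markers in the values of Mx2 and Irf1 was not tested.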

How the data were processed

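Total mouse liver RNA was sequenced as 9 paired-end Illumina TruSeq libraries, per the labels' protocols. TPM values per gene symbol were deposited by the authors, 1 file a library. Per the submitters' processing notes kallisto and mm10 were used, with version and annotation not given in the sources used here. All 40 members, and the pathway and marker lists, were chosen with earlier results of these data known. From the deposited TPM, log2(TPM + 0.5) was computed and fitted in limma 3.58.1 (R 4.3.3) with 1 mean per group over all 9 libraries, trended and robust variance, and two-sided moderated tests. The fit was tested on simulated data. Every library's values are given for members called in any comparison, for the 4 with the largest absolute log2 fold change in each, and for Stat2, Irf7 and Irf9. Pathway genes were named when called or, per list, when among the 2 largest changes with age, and Irf1, Ifnar1, Ifngr1, Ifng and Ifnb1 in every case, and 1 further gene of this rule is not reported here. Others named beside these are given by group means or were chosen after their values were seen (Ddx58 and Bst2 by library). Alternatives were 2 other pseudocounts (0.1 and 1), no filter, 5 TPM as the minimum, 2 scalings, array weights, no robust variance, a replicate block, only the 2 groups compared, and each library left out. Positions and 31-base words came from GENCODE M21.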

Additional observations from a re-analysis of the deposited data

How the results depend on the processing

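With age, the count of members called (4) became 1 without the filter and in the fit of the 2 groups compared. It was 2 with at least 5 TPM and 1 to 6 with 1 library left out. Over all genes 66 were called higher and 46 lower in the main fit. Without the filter these counts were 40 and 22 of 16836 genes, and in the fit of the 2 groups 32 and 17 of 9997. With at least 5 TPM they were 59 and 34 of 6198 genes, where 15 members were tested. With 1 library left out they ranged from 12 to 377 and from 3 to 319. The members' median log2 fold change with age was -0.152 with at least 5 TPM, and -0.386 to -0.218 with 1 library left out. For the drug, 1 member (Mx2) was called with median-of-ratios scaling, quantile normalization or array weights, and 0 to 1 with 1 library left out. Over all genes array weights called 116 higher and 155 lower. With 1 library left out these drug counts ranged from 5 to 164 and from 2 to 228. The members' drug median was -0.029 with median-of-ratios scaling and -0.016 with quantile normalization, and -0.15 to -0.041 with 1 library left out. From young to treated, 3 members were called with at least 5 TPM and 3 to 9 with 1 library left out. Over all genes 213 were called higher and 305 lower of 6198 with at least 5 TPM. With 1 library left out these counts ranged from 72 to 431 and from 79 to 832. The members' median there was -0.251 with at least 5 TPM, -0.248 with median-of-ratios scaling, -0.237 with quantile normalization, and -0.41 to -0.308 with 1 library left out. Fewer genes and members are tested at 5 TPM, and for the other settings the cause was not tested. Stat2, never called, changed sign: with age it ranged from -0.297 to 0.032 and with the drug from -0.04 to 0.289 with 1 library left out, and from young to treated it was 0.094 with median-of-ratios scaling, 0.029 with quantile normalization, and -0.021 to 0.009 with 1 library left out. Scaling also moved the split of calls over all genes. With the drug, 62 higher and 85 lower became 109 and 56 with median-of-ratios scaling and 88 and 56 with quantile normalization; from young to treated, 263 and 436 became 359 and 250, and 308 and 310. Same-numbered libraries of different groups had deviations correlated at -0.22 to 0.166, over 0.1 in 2 of 9 pairs. In 9 of 18 matches of a library to another group its best partner had its own number. By replicate number the correlations were 0.133, 0.071 and 0.076 between young and treated libraries. They were -0.114, -0.22 and -0.162 between young and aged ones, and -0.101, 0.056 and 0.166 between aged and treated ones. Deviations from the mean of 3 libraries depend on one another, so these values cannot decide whether the replicate numbers pair the samples. With the replicate block, 4 members were called with age, 0 with the drug and 6 from young to treated, Igtp being lost (limma adjusted p = 0.0614), and the calls over all genes were 53 higher and 38 lower with age, 31 and 29 with the drug and 203 and 289 from young to treated. The precision of the TPM values is limited by a read depth that is unknown here and by the 3 libraries per group.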
